A study of Homo sapiens with 5 samples.

Results

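The genes described here encode the lysosome and the autophagy machinery, and comprise lysosomal membrane proteins, lysosomal hydrolases, the transcription factors TFEB and TFE3, and the core autophagy proteins. They are a list of 37 gene symbols, all of which were found by name among the 26364 names of the deposited expression table. The list groups genes by their known function. Of the 37, 35 had a mean normalized count of at least 10 over the 5 libraries and were tested, as were 11313 genes in all. The remaining members, NEU1 and FUCA1, lay below that minimum, NEU1 at 0 and FUCA1 at or near 0 in every library.

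The libraries were mRNA-seq of IMR-90 cells, a line of normal human lung fibroblasts, collected as growing cells 24 hr after siRNA transfection. Ctr-KD cells received a control siRNA (2 libraries, Ctr-1 and Ctr-2), and NSD2-KD cells received an siRNA against NSD2, a histone H3 lysine 36 methyltransferase (3 libraries). Each NSD2-KD library was made with a different siRNA, named NSD2-1, NSD2-2 and NSD2-3, so that the effect of an siRNA and the spread between cultures cannot be told apart within this group. The study followed cellular senescence after loss of NSD2, with senescence-associated beta-galactosidase staining as a readout, and the comparison asked whether the transcripts of lysosome and autophagy genes differed between NSD2-KD and Ctr-KD cells at this early time. In bulk RNA, fewer cells of a kind and less RNA per cell cannot be told apart.

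Lysosomes are acidic organelles in which hydrolases break down proteins, glycans and lipids that arrive by endocytosis or by autophagy. In autophagy, a kinase complex containing ULK1 and a lipid kinase complex containing BECN1 start a membrane that is decorated with lipid-linked ATG8 proteins such as LC3, closes around its cargo and fuses with the lysosome. TFEB and TFE3 are related transcription factors that bind E-box motifs in the promoters of many lysosomal and autophagy genes, are held in the cytoplasm when the mTORC1 kinase on the lysosome is active, and are regulated largely through their location in the cell, which mRNA levels do not show. Senescent fibroblasts are known for an enlarged lysosomal compartment, and the staining named above detects the product of GLB1.

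Because the TFEB family is part of the list, promoters of the members were read for its E-box, and those that carry the longer form are shown here to let a reader see the sites. RefSeq promoters (GRCh38.p14, 250 bases before to 50 bases after each annotated start, read in the direction of the gene) were found for 31 of the 37 members. The letters searched were TCACGTGA and its inner 6 bases CACGTG, which every TCACGTGA contains; both are palindromes, so that a match on either strand is the same match. TCACGTGA was present for 5 of the 31 members (16.1%), LAMP1, MCOLN1, CTSA, GAA and ATG3, against 262 of 15843 protein-coding genes with a promoter (1.65%). CACGTG was present for 8 of the 31 (25.8%), adding CD63, CTSD and NEU1, against 10.9% of the protein-coding genes. The whole LAMP1 promoter is printed (chr13:113296989-113297288, plus strand), since it holds 6 copies of CACGTG, marked in capitals.
LAMP1 promoter: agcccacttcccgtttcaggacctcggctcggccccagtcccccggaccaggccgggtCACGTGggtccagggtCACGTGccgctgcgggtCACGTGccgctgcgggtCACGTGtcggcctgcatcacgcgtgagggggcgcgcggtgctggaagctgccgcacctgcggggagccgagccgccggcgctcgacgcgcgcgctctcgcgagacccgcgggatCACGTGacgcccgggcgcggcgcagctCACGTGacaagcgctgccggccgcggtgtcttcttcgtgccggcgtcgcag
For the other 4 members, TCACGTGA is in capitals within the 16 bases on each side of it. The windows lie at chr19:7522566-7522605 and chr19:7522593-7522632 for MCOLN1, chr20:45891293-45891332 for CTSA, chr17:80101488-80101527 and chr17:80101533-80101572 for GAA, all on the plus strand, and at chr3:112561935-112561974 on the minus strand for ATG3.
MCOLN1 first site: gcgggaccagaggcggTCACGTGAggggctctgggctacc
MCOLN1 second site: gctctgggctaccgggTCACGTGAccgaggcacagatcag
CTSA site: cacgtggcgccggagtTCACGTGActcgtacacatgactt
GAA first site: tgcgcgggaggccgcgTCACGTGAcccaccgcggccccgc
GAA second site: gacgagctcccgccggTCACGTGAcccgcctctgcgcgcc
ATG3 site: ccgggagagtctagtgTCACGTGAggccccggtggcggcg
A match says only that these letters stand in the window, and occupancy by a factor was not measured in these libraries.

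The libraries held between 2473691 and 2845063 reads on genes, a shallow depth at which 3 reads, taken as the detection floor, correspond to 2.76 to 3.28 normalized counts. NSD2 itself, listed as WHSC1, had 463 and 443 normalized counts in Ctr-KD cells and 90.2, 81.9 and 87.9 in NSD2-KD cells (log2 difference -2.37, limma adjusted p = 0.000464). All 10 fibroblast marker genes were expressed, with summed levels of 223866 to 255510 normalized counts, while the 5 epithelial markers summed to 149.7 to 264.5, the 5 endothelial markers to 99.6 to 156.2 and the 5 immune markers to 60.5 to 104.9. Nearly all of these sums came from KRT8 and KRT18 (epithelial), TEK (endothelial) and CD68 (immune, itself a lysosomal membrane protein). The epithelial sum was highest in the NSD2-3 library, the epithelial markers EPCAM and CDH1 had at most 2.18, and PECAM1, CDH5, PTPRC, CD3E and MS4A1 were at 0 in every library. Summed proliferation markers (MKI67, TOP2A, CCNB1, CDK1, MCM3 and RRM2) were 2449 and 2556 normalized counts in Ctr-KD cells and 1316, 785 and 808 in NSD2-KD cells, so that proliferation moved with every comparison described here, and its part in them was not tested. The Ctr-KD pair differed little beyond sampling noise (over 12373 genes the chi-square divided by its degrees of freedom was 1.05, against 3.87 to 5.29 for the other pairs of libraries), and p-values therefore measure the spread between these 5 libraries, which for the Ctr-KD pair may be technical.

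In growing Ctr-KD fibroblasts, 7 of the 8 highest levels in the list belonged to lysosomal genes and 1 to an autophagy gene, SQSTM1. Levels between genes were compared as normalized count per kb of the annotated canonical transcript. CD63, a tetraspanin of late endosomes and lysosomes, had the highest level at 1787 per kb (mean of 2 libraries, 1776 and 1797). It was followed by CTSB, the cysteine protease cathepsin B, at 925 per kb, by the autophagy cargo receptor SQSTM1 at 894.5 per kb, and by PSAP, the precursor of the saposins, at 690.8 per kb. The aspartic protease CTSD at 455.4 per kb and the membrane glycoprotein LAMP1 at 423.9 per kb came next. Toward the other end stood ULK1 at 31.5 per kb, above ATG16L1 (23.35), ATG7 (22.44) and ATG5 (19.87). The lowest tested members were CTSK at 13.3 per kb and TFEB at 6.15 per kb. Levels of 13 of the 36 neighbouring pairs in this order overlapped between the Ctr-KD libraries, among them SCARB2 with SMPD1, TFE3 with MAP1LC3B, and the run MCOLN1, ATG12, GUSB and GAA near 40.0 per kb. TFE3 had 114.7 per kb, far above its relative TFEB in these fibroblasts.

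**Figure D1:**
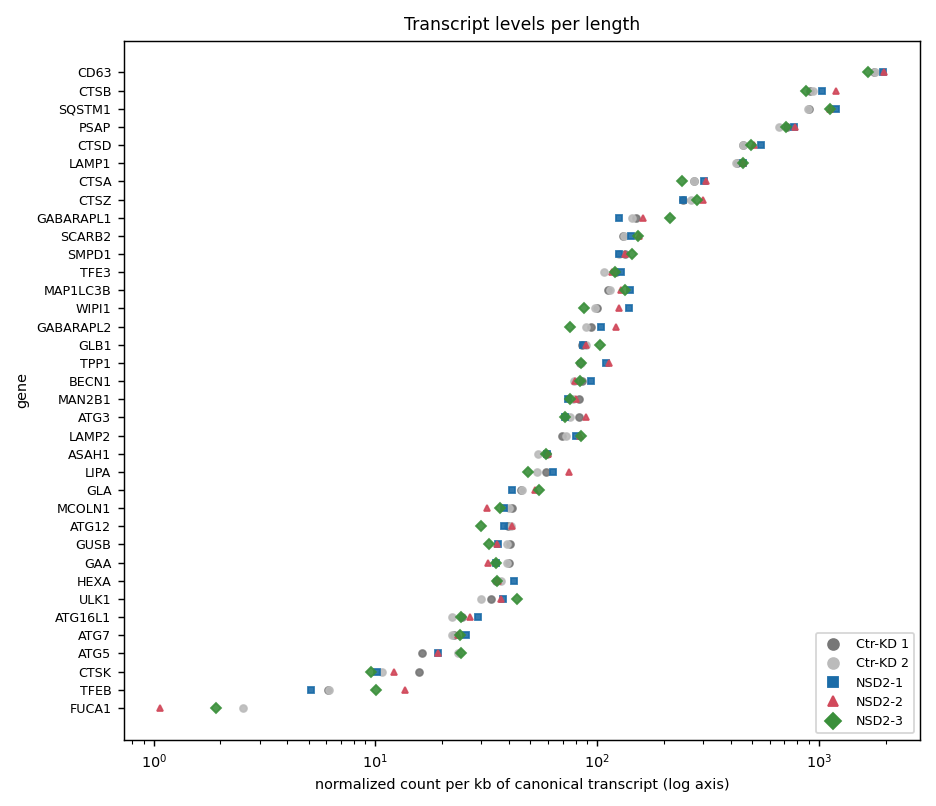
Normalized count per kb of canonical transcript for each member (horizontal log axis) in each of the 5 libraries, in order of the mean Ctr-KD level; NEU1 and libraries at 0 cannot be drawn on a log axis. The mean Ctr-KD levels of the tested members span from 1787 per kb for CD63 to 6.15 per kb for TFEB, and FUCA1, drawn from its libraries above 0, lies lower still at 1.26 per kb.

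None of the 35 tested members differed between NSD2-KD and Ctr-KD cells by limma at an adjusted p of 0.05, where 10 of 11313 genes (0.0884%) passed. The same count of 0 was obtained with edgeR (16 genes passed in all, 0.141%) and limma-voom (10 genes, 0.0884%). DESeq2 also called 0 members, while 58 of the 9339 genes to which it gave an adjusted p passed (0.621%). It gave no adjusted p to CTSK and TFEB, so it could not call them. At an unadjusted p below 0.05 by limma there were 3 members, LAMP2, ULK1 and SQSTM1 (8.57% of 35), all higher in NSD2-KD cells, against 9.18% of all tested genes in either direction and 4.19% in this direction. By edgeR 1 member lay below 0.05 unadjusted (9.24% of all tested genes), and by DESeq2 1 member did (4.68%).

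The differences were small and mostly of the same sign. Log2 differences (NSD2-KD minus Ctr-KD, on the log2(normalized count + 1) scale) ran from -0.29 for CTSK to 0.51 for TFEB with a median of 0.10, and 28 members (80%) lay above 0. Over all tested genes the median was -0.0089 and 48.5% lay above 0. The 3 NSD2-KD values lay above both Ctr-KD values for 9 members (25.7%; 13.8% of all tested genes), which were LAMP1, LAMP2, SCARB2, CTSD, TPP1, ULK1, ATG7, MAP1LC3B and SQSTM1. For 3 members (8.57%; 13.9% of all tested genes), MCOLN1, GAA and GUSB, they lay below, and for 23 members the groups overlapped. For 19 members the 95% confidence interval of the log2 difference lay within -0.5 to 0.5 (54.3%; 32.0% of all tested genes). A lower bound above -0.5 was found for 30 (57.1% of all tested genes) and an upper bound below 0.5 for 24 (61.7%), so that an increase above 0.5 lay within the interval of 11 members. Few members were low, with 2 below a mean normalized count of 50, against 3727 of all 11313 tested genes. Those members, CTSK and TFEB, had wide intervals, and the part of expression level in these shares was not tested. Counts and medians over these members are descriptions and carry no test.

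**Figure D2:**
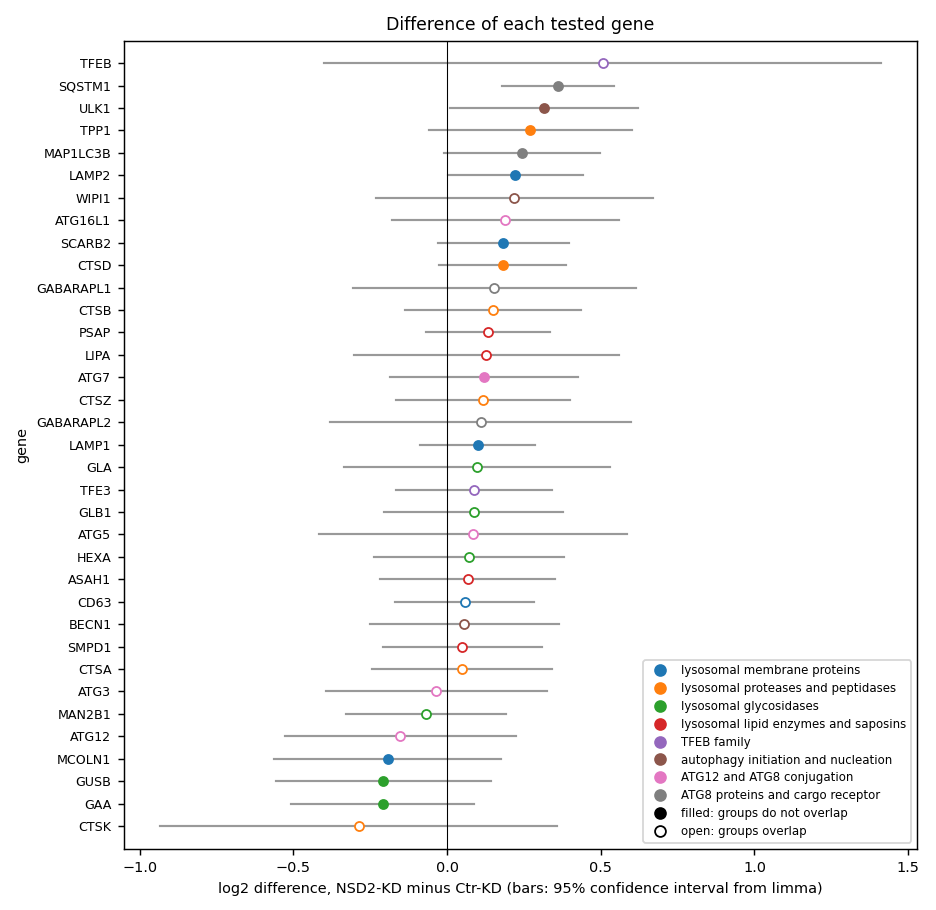
Log2 difference between NSD2-KD and Ctr-KD cells for each of the 35 tested members (horizontal axis), with 95% confidence intervals from limma as bars and colors for the role of the gene; filled points mark members whose groups do not overlap. Intervals of all but SQSTM1, ULK1 and LAMP2 include 0, and that of TFEB is the widest upward, from -0.40 to 1.41.

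Among the ATG8 proteins and their cargo receptor, SQSTM1 gave the smallest p of the list. SQSTM1 (chr5:179233398-179265078, GRCh37, plus strand) encodes p62, which binds ubiquitinated cargo and LC3 and is itself degraded by autophagy. It had 2555 and 2526 normalized counts in the Ctr-1 and Ctr-2 libraries and 3412, 3204 and 3176 in the NSD2-1, NSD2-2 and NSD2-3 libraries. Every NSD2-KD library was above both Ctr-KD libraries, with a ratio of group means of 1.28. The log2 difference was 0.36 ± 0.079 (SE, n = 2 and 3; 95% interval 0.18 to 0.54) and did not pass the adjustment over all genes (limma adjusted p = 0.224; edgeR 0.200; DESeq2 0.375; limma-voom 0.166). Exons of MGAT4B and MRNIP overlap SQSTM1 on the opposite strand, and without stated strand-specific counting their reads cannot be told from those of SQSTM1.

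MAP1LC3B (chr16:87417559-87438385, plus strand) encodes LC3B, the ATG8 protein used as the standard marker of autophagosomes. Its normalized counts were 241 and 244.9 in Ctr-KD cells and 301.8, 274.2 and 288 in NSD2-KD cells, again without overlap of the groups. The log2 difference of 0.24 had an interval of -0.0097 to 0.50 (limma adjusted p = 0.563). Only unique hits were kept, so reads that match the near-identical MAP1LC3B2 equally well may be missing from the MAP1LC3B count. FBXO31 overlaps MAP1LC3B on the opposite strand, and how reads in the overlap were counted is not stated. The other ATG8 genes among the members, GABARAPL1 and GABARAPL2, varied more between siRNAs than between groups. GABARAPL1 had 281 and 270.6 normalized counts in Ctr-KD cells and 237.4, 302.6 and 402.2 in NSD2-KD cells. GABARAPL2 had 91.5 and 86.4 against 101.2, 119.1 and 73.2. For GABARAPL1 the NSD2-3 library was the highest and for GABARAPL2 the lowest, and the groups overlapped for both. An antisense gene, GABARAPL1-AS1, overlaps GABARAPL1. Reads that match the near-identical copy GABARAPL3 equally well may be missing from the GABARAPL1 count. All 4 genes of this role had a log2 difference above 0 (median 0.20), and none was called.

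**Figure D3:**
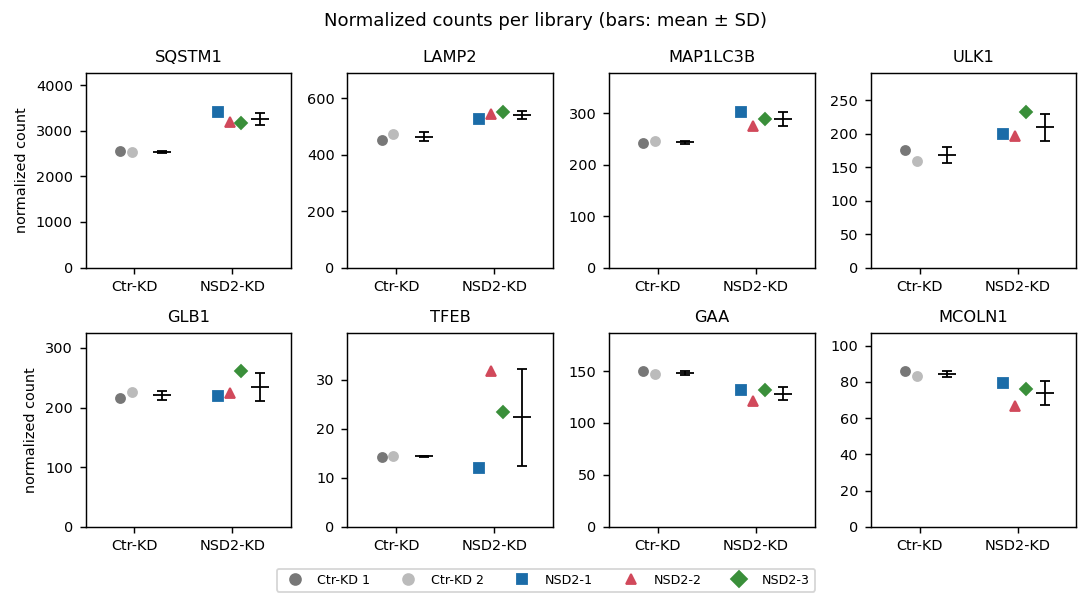
Normalized counts (vertical axes, starting at 0) of 8 members in each library, with the mean and SD of each group beside the points. SQSTM1, LAMP2, MAP1LC3B and ULK1 show NSD2-KD points above both Ctr-KD points, GAA and MCOLN1 show them below, and for GLB1 and TFEB the groups overlap.

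The kinase ULK1 (chr12:132379167-132407695, plus strand), which starts autophagy and is inhibited by mTORC1, had 176.2 and 159.5 normalized counts in Ctr-KD cells and 199.7, 196.6 and 232.3 in NSD2-KD cells. All 3 NSD2-KD values were above the higher Ctr-KD value, and the log2 difference was 0.32 ± 0.13 (SE; limma adjusted p = 0.525). BECN1, a subunit of the lipid kinase complex that nucleates the autophagosome, had a log2 difference of 0.06 with overlapping groups. WIPI1, which reads the lipid made by that complex, had 190.5 and 187.2 normalized counts in Ctr-KD cells against 266.8, 240.3 and 165.9, so that the NSD2-3 library lay below both Ctr-KD libraries and the other siRNAs above them. Exons of ARSG overlap WIPI1 on the opposite strand.

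The enzymes that attach ATG12 and the ATG8 proteins to their targets had a median log2 difference of 0.08. ATG7 (chr3:11313995-11599139, plus strand), the E1-like enzyme of both reactions, had 121 and 118.3 normalized counts in Ctr-KD cells and 137.1, 125.6 and 127.9 in NSD2-KD cells. Its groups did not overlap, but the log2 difference was 0.12 with an interval of -0.18 to 0.42 (limma adjusted p = 0.839), and VGLL4 overlaps its exons on the opposite strand. Log2 differences of the others, with overlapping groups, were -0.15 for ATG12, -0.04 for the E2-like enzyme ATG3, 0.08 for ATG5, which is joined to ATG12, and 0.19 for ATG16L1, which brings the conjugate to the membrane.

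For the lysosomal membrane, LAMP1 and LAMP2, the major glycoproteins that line it, and SCARB2, the receptor that carries glucocerebrosidase to it, lay higher in NSD2-KD cells. LAMP2 (chrX:119560003-119603220, minus strand) had 452.5 and 475.3 normalized counts in Ctr-KD cells and 525.4, 546.2 and 551.5 in NSD2-KD cells. SCARB2 (chr4:77079890-77155689, minus strand) had 616.4 and 620.4 against 667.1, 724.2 and 716.5. Neither pair of groups overlapped, and the log2 differences were 0.22 for LAMP2 (limma adjusted p = 0.539) and 0.18 for SCARB2 (limma adjusted p = 0.612). LAMP1 (chr13:113951554-113977987, plus strand), whose promoter is printed above, had 1151 and 1139 normalized counts in Ctr-KD cells and 1226, 1225 and 1229 in NSD2-KD cells. The separation was complete but small, at a log2 difference of 0.10 with an interval of -0.09 to 0.29. MCOLN1 (chr19:7587510-7598895, plus strand), the lysosomal calcium channel, had 85.7 and 83.3 normalized counts in Ctr-KD cells and 79.1, 66.6 and 76.1 in NSD2-KD cells. It was the membrane gene with lower NSD2-KD values in every library (log2 difference -0.19, limma adjusted p = 0.778), and PNPLA6 overlaps it on the same strand. CD63 had overlapping groups and a log2 difference of 0.06.

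Of the 6 lysosomal proteases and peptidases, CTSD and TPP1 had groups that did not overlap, both higher in NSD2-KD cells. CTSD (chr11:1773982-1785803, minus strand), the main aspartic protease, had 933.6 and 938.3 normalized counts in Ctr-KD cells and 1125, 1043 and 1017 in NSD2-KD cells (log2 difference 0.18, limma adjusted p = 0.603). TPP1 (chr11:6633999-6640679, minus strand), a tripeptidyl peptidase, had 291.5 and 295.3 against 381, 394.3 and 295.8. For TPP1 the NSD2-3 library was level with Ctr-2, so that the log2 difference of 0.27 came from the NSD2-1 and NSD2-2 libraries (limma adjusted p = 0.628). Exons of further annotated genes without an official symbol overlap TPP1, and long noncoding RNA genes overlap CTSD. The counts of TPP1 and CTSD may therefore hold other reads or lack reads from the overlaps. CTSB had 3392 and 3513 normalized counts in Ctr-KD cells and 3863, 4441 and 3265 in NSD2-KD cells, and its NSD2-3 value was the lowest of the 5. CTSA, the protective protein of sialidase and beta-galactosidase, and CTSZ, a carboxypeptidase, had log2 differences of 0.05 and 0.12. CTSK, the collagen-degrading cathepsin, was low in these cells with 25.7 and 17.5 against 16.6, 19.7 and 15.6 normalized counts, and its interval of -0.93 to 0.36 leaves its direction undetermined at this depth.

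Glycosidases showed no common direction, with a median log2 difference of 0.0014 over 6 tested genes. GLB1 (chr3:33038101-33138694, minus strand), the lysosomal beta-galactosidase, had 215.3 and 225.3 normalized counts in Ctr-KD cells and 219, 223.9 and 260.6 in NSD2-KD cells. The NSD2-1 and NSD2-2 values lay between the Ctr-KD values and the NSD2-3 value above them, and the log2 difference was 0.09 with an interval of -0.20 to 0.38 (limma adjusted p = 0.887). TMPPE shares exon sequence with GLB1 on the same strand. GAA (chr17:78075332-78093680, plus strand), the glycogen-degrading alpha-glucosidase, had 149.6 and 147.1 normalized counts in Ctr-KD cells and 131.6, 121.2 and 131.8 in NSD2-KD cells. GUSB (chr7:65425671-65447202, minus strand), the beta-glucuronidase, had 88.6 and 86.4 against 78.2, 77.6 and 71.3. Both were lower in all 3 NSD2-KD libraries by 0.21 on the log2 scale (intervals -0.51 to 0.09 and -0.56 to 0.14), with limma adjusted p = 0.689 and 0.746. The hexosaminidase subunit HEXA, the alpha-galactosidase GLA and the alpha-mannosidase MAN2B1 had overlapping groups and log2 differences of 0.07, 0.10 and -0.07.

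The sialidase gene NEU1 (chr6:31825436-31830682, minus strand) was listed at 0 in all 5 libraries. Of the 88 other protein-coding genes listed within 1 Mb on either side of it, 78 (88.6%) had a mean below 1 normalized count, against 33.6% of 18055 protein-coding genes in the table, and 3 reached 10. Genes of general function such as CSNK2B, a casein kinase subunit, were listed at 0 in this region too, so no level of NEU1 is read from these values. FUCA1, the alpha-fucosidase, was listed at 0, 5.14, 0, 2.18 and 3.90 normalized counts in the Ctr-1, Ctr-2, NSD2-1, NSD2-2 and NSD2-3 libraries, near the floor of 3 reads, and no difference was detectable at this depth.

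Enzymes of lipid breakdown had 4 log2 differences above 0 and overlapping groups throughout. They were 0.13 for PSAP, whose saposins present sphingolipids to hydrolases, 0.07 for the ceramidase ASAH1, 0.05 for the sphingomyelinase SMPD1 and 0.13 for LIPA, the lysosomal acid lipase. LIPA had 146.7 and 133.7 normalized counts in Ctr-KD cells and 157.3, 186.8 and 122 in NSD2-KD cells, with the NSD2-2 library highest and the NSD2-3 library lowest of all 5. IFIT2 and IFIT3 overlap the annotated span of LIPA exons on the opposite strand.

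TFEB (chr6:41651716-41703997, minus strand) had the largest log2 difference of the list and also the widest spread. It had 14.3 and 14.4 normalized counts in Ctr-KD cells and 11.96, 31.68 and 23.43 in NSD2-KD cells. The NSD2-2 and NSD2-3 libraries were above the Ctr-KD libraries and the NSD2-1 library was below them, so the log2 difference of 0.51 had an interval of -0.40 to 1.41 (limma adjusted p = 0.762). An antisense gene overlaps TFEB, and at these levels a value rests on few reads. TFE3 (chrX:48886237-48900936, minus strand) had 402 and 352.9 against 420.5, 383.4 and 397.3, with overlapping groups and a log2 difference of 0.09 (limma adjusted p = 0.862).

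The 5 members with TCACGTGA in their promoter had log2 differences of -0.21 to 0.10, with a median of -0.04. LAMP1 was the single gene of these with higher NSD2-KD values in every library, and MCOLN1 and GAA had lower ones. The 24 tested members whose promoter lacked those letters had a median of 0.12. The 6 without a promoter in the reference table had a median of 0.10. The order was the reverse in the further gene lists described below. With and without TCACGTGA, medians were 0.323 (2 genes) and 0.235 (9) for V-ATPase subunits. For other lysosomal proteins they were 0.162 (6 genes) and 0.116 (23). For other autophagy proteins they were 0.272 (1 gene) and 0.104 (29). For mTORC1 and nutrient sensing they were 0.221 (2 genes) and -0.0164 (17). All these medians are descriptions over few genes, and the differences between them were not tested.

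For 29 of the 35 tested members (82.9%), values differed more among the siRNAs than between Ctr-1 and Ctr-2, which was near the 81.7% of all tested genes. A range of 3 values also tends to exceed a gap between 2. The range of the 3 siRNAs had a median of 0.249 on the log2 scale over the members, against 0.0545 for the gap from Ctr-1 to Ctr-2, and over all tested genes the medians were 0.387 and 0.138. The widest ranges were those of TFEB (1.33), GABARAPL1 (0.758), GABARAPL2 (0.694), WIPI1 (0.682) and LIPA (0.610). Each siRNA alone gave a median log2 difference from the Ctr-KD mean of 0.12 (NSD2-1), 0.16 (NSD2-2) and 0.05 (NSD2-3), with 21, 29 and 21 members above 0. Over all 11313 tested genes these medians were 0.0055, 0.0115 and 0.0044, with 5751, 5822 and 5730 genes above 0. The NSD2-3 library had the lowest of the 3 values for 17 members (48.6%), while over all tested genes each library was lowest for 32.5% to 34.8%. Without NSD2-3, the NSD2-KD values lay above both Ctr-KD values for 17 members (48.6%; 22.1% of all tested genes) and below for 3 (8.57%; 21.1%). Without NSD2-2 the counts were 9 above (25.7%; 21.0%) and 7 below (20.0%; 20.6%), close to the shares of all genes. Without NSD2-1 they were 13 above (37.1%; 22.3%) and 3 below (8.57%; 21.6%). The NSD2-2 library had the highest of the 3 values for 15 members (42.9%; 33.6% of all tested genes). Leaving out the library that was most often lowest or highest shifts these counts by construction.

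**Figure D4:**
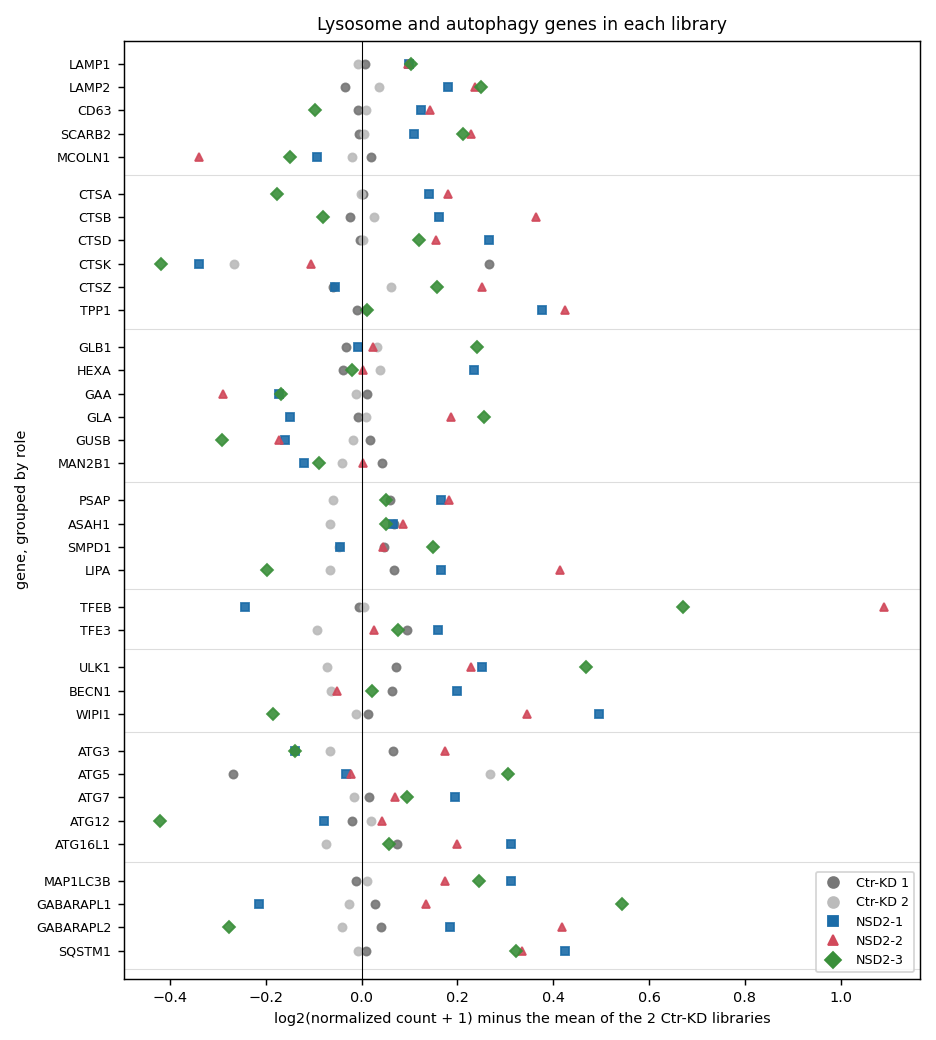
Each tested member in each library as log2(normalized count + 1) minus the mean of the Ctr-KD libraries (horizontal axis), grouped by role. The Ctr-KD points differ by a median of 0.0545 and lie farthest apart for ATG5 (0.537) and CTSK (0.531), SQSTM1 and LAMP2 show all 3 siRNAs on one side, and TFEB, GABARAPL1, WIPI1 and LIPA show siRNAs on both sides of 0.

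Other genes of the pathway were read from lists by function, which share no member with the list above. Among the 16 subunits of the V-ATPase, the proton pump that acidifies the lysosome, none was called by limma, edgeR or DESeq2, although 15 had a log2 difference above 0 and the median was 0.24. The groups did not overlap for 9 of them (56.2%; 13.8% of all tested genes), all higher in NSD2-KD cells, and 5 (31.2%) had an unadjusted limma p below 0.05, all higher, against 4.19% of all tested genes in this direction. With edgeR 2 subunits lay below 0.05 unadjusted (9.24% of all tested genes), and with DESeq2 0 (4.68%). The cytosolic stalk subunit ATP6V1G1 had 171.5 and 180 normalized counts in Ctr-KD cells and 198.8, 230.5 and 256.7 in NSD2-KD cells (log2 difference 0.37, limma adjusted p = 0.468). ATP6V1A, the catalytic subunit, had 265.8 and 304.5 against 380, 314.6 and 394.4 (0.34). For ATP6V0A1, a membrane subunit, the values were 102.9 and 100.8 against 133.4, 120.2 and 128.9 (0.32). Each siRNA gave a median above 0 for the subunits (0.25, 0.19 and 0.17, against 0.0055, 0.0115 and 0.0044 over all tested genes). The pump list thus had the largest median of the pathway lists, without any single subunit passing the test.

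Of 42 other lysosomal proteins, 40 were tested and none was called, with a median log2 difference of 0.12. The groups did not overlap for 12, all higher in NSD2-KD cells (30.0%; 13.8% of all tested genes). An unadjusted limma p below 0.05 was found for 5 (12.5%), all higher (4.19% of all tested genes). With edgeR 5 lay below 0.05 unadjusted (9.24% of all tested genes), and with DESeq2 1 did (4.68%). AGA, which cleaves the sugar-asparagine bond of glycoproteins, had 27.6 and 25.7 normalized counts in Ctr-KD cells and 44.2, 38.2 and 41.0 in NSD2-KD cells (log2 difference 0.60, limma adjusted p = 0.402). SGSH, a heparan sulfate sulfamidase, had 158.1 and 211.9 against 256.7, 268.7 and 275.3 (0.54, limma adjusted p = 0.295), with the Ctr-KD libraries apart from each other and with CARD14 and SLC26A11 overlapping it on the opposite strand. For the cathepsin CTSO the values were 21.9 and 22.6 against 34.1, 33.9 and 24.4, with the NSD2-3 library close to the Ctr-KD libraries.

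Of 43 other autophagy proteins, 40 were tested and none was called, with a median of 0.09. The groups did not overlap for 6 higher (15%) and 2 lower (5%), against 13.8% and 13.9% of all tested genes, so that the share of higher genes was near that of all genes. An unadjusted limma p below 0.05 was found for 2 genes (5%; 9.18% of all tested genes), both higher. With edgeR 2 genes lay below 0.05 unadjusted (9.24% of all tested genes), and with DESeq2 1 did (4.68%). GABARAP, a further ATG8 protein, had 261 and 235.6 normalized counts in Ctr-KD cells and 344.1, 348.5 and 301.6 in NSD2-KD cells (log2 difference 0.41, limma adjusted p = 0.326). ATG13, a partner of ULK1, had 163.9 and 184.2 against 213.5, 209.7 and 214.8 (0.29), with HARBI1 overlapping it on the opposite strand. The lipid transfer protein ATG2A had 119.1 and 132.7 against 154.6, 142 and 161.1 (0.28). These were higher in each NSD2-KD library, and the ATG8-processing proteases ATG4C and ATG4B were lower in each. ATG4C had 20.96 and 19.55 normalized counts in Ctr-KD cells and 11.96, 13.11 and 15.62 in NSD2-KD cells (log2 difference -0.55). ATG4B had 113.4 and 120.4 against 106.7, 100.5 and 100.5 (-0.19).

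Of 26 genes of mTORC1 and nutrient sensing at the lysosome, 22 were tested and none was called, with a median of -0.0024. This list also held 2 further genes of the TFEB family, of which 1 was tested. Unlike TFEB and TFE3 it had a log2 difference below 0 (-0.22, limma adjusted p = 0.748), and it lay lower in each NSD2-KD library. The groups did not overlap for 6 higher (27.3%; 13.8% of all tested genes) and 5 lower (22.7%; 13.9%). An unadjusted limma p below 0.05 was found for 3 genes (13.6%; 9.18% of all tested genes), 1 higher and 2 lower. With edgeR 3 genes lay below 0.05 unadjusted (9.24% of all tested genes), and with DESeq2 1 did (4.68%). SESN1, a sestrin that restrains mTORC1, had 33.3 and 40.1 normalized counts in Ctr-KD cells and 46.0, 54.6 and 73.2 in NSD2-KD cells (log2 difference 0.62). Its relative SESN2 had 235.3 and 216 against 262.2, 263.3 and 265.5 (0.22). Folliculin, FLCN, had 150.5 and 169.8 against 246.6, 172.6 and 181.6 (0.31). For FLCN the NSD2-2 value was close to that of Ctr-2, and the NSD2-1 value was the highest. Its binding partners FNIP2 and FNIP1 lay lower in each NSD2-KD library. FNIP2 had 82.9 and 76.1 normalized counts in Ctr-KD cells and 37.7, 53.5 and 58.6 in NSD2-KD cells (log2 difference -0.68). FNIP1 had 140 and 148.1 against 94.8, 120.2 and 121 (-0.37). The kinase gene MTOR had 299.1 and 305.6 normalized counts in Ctr-KD cells and 276.1, 97.2 and 242.1 in NSD2-KD cells, with the NSD2-2 library far below the others (log2 difference -0.69, limma adjusted p = 0.645).

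**Figure D5:**
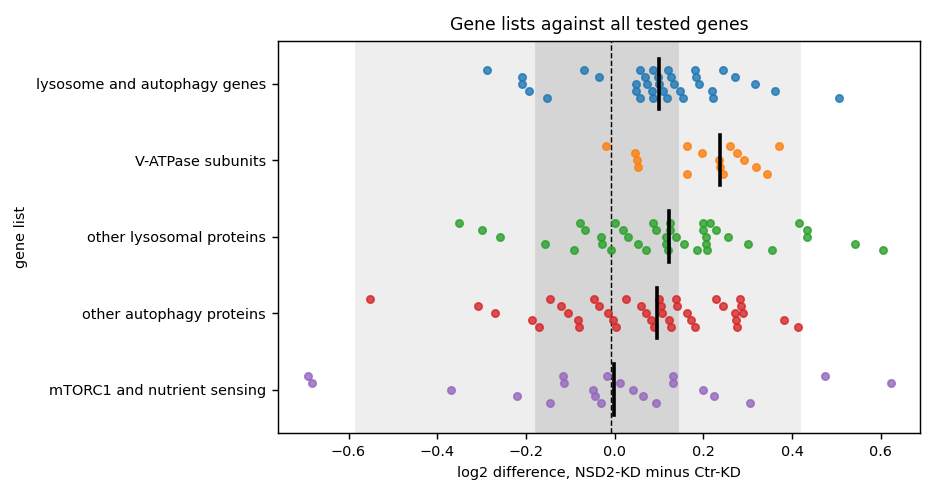
Log2 difference of each tested gene (points) in the lysosome and autophagy genes and in the further pathway lists (rows), with the median of each list as a black bar; the dashed line is the median of all 11313 tested genes and the gray bands hold their middle 50% and 90%. The V-ATPase row has its median at 0.24 and 15 of 16 points above 0, and the mTORC1 row is centered near 0.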

How the data were processed

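Poly(A) mRNA-seq libraries of IMR-90 cells were compared, 2 of Ctr-KD and 3 of NSD2-KD cells, grouped from the siRNA named in the sample labels. Per the supporting procedures, the authors trimmed single-end reads, used HISAT2 for mapping to hg19 and SAMtools to retain unique hits, and counted reads per gene with featureCounts, and the counts were scaled by DESeq2 size factors. The strand setting and annotation of the counting are not given in the sources used here. The deposited values are therefore a signal, counts per gene divided by a size factor, called normalized counts here. Whole reads were recovered from their steps for 100% of values (tolerance 0.01 read). A second deposited table with the authors' own fold changes and p-values was not used, and neither were its values compared.

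The 11313 genes whose normalized counts averaged 10 or more entered limma 3.58.1 in R 4.3.3 (empirical Bayes with a mean-variance trend, two-sided) on log2(normalized count + 1), with Benjamini-Hochberg adjustment over all tested genes and a threshold of 0.05. The pseudocount understates differences of low genes. Recovered reads were tested with edgeR 4.0.16 (quasi-likelihood), DESeq2 1.42.0 and limma-voom as alternatives. The script was tested on simulated data. Gene locations and transcript lengths came from GENCODE v44lift37 (GRCh37), matched by symbol for 22193 names, and promoters from RefSeq. In the table, 28 names had been turned into dates and were kept as listed.

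The members and the further lists were chosen with earlier results of these data known. Values in every library are given for GLB1, TFEB, TFE3, MAP1LC3B, SQSTM1, any called member, and up to 8 members in each direction whose groups do not overlap, by size of difference, and in each further list for called genes and up to 3 in each direction. CTSB, CTSK, WIPI1, LIPA, GABARAPL1, GABARAPL2 and LAMP1 were given in full after their values were seen.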

Additional observations from a re-analysis of the deposited data

How the results depend on the processing

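Under all 16 alternatives (pseudocounts of 0.5 and 5, no filter, a minimum mean of 50, no trend, robust variance, quantile normalization, edgeR, DESeq2, limma-voom, the replicate block and leaving out each library) no member and no other pathway gene was called, and the median log2 difference of the members stayed between 0.09 and 0.12, while that of all genes stayed between -0.02 and 0.01. At the minimum mean of 50, the members CTSK and TFEB and 12 other pathway genes (5 lysosomal, 4 autophagy and 3 mTORC1) could not be fitted. DESeq2 gave no adjusted p to CTSK, TFEB and some other pathway genes such as CTSO and ATG4C, which it therefore could not call. The number of genes called among all tested, 10 as reported, was 1 without the trend, 16 with edgeR, 58 with DESeq2, 102 with the replicate block and between 0 and 30 when 1 library was left out (0 without Ctr-1 or Ctr-2, 16 without NSD2-1, 4 without NSD2-2, 30 without NSD2-3). Members at an unadjusted p below 0.05, 3 as reported, were 1 without the trend, with edgeR or with DESeq2, and 1 to 5 when 1 library was left out (1 without Ctr-1 or Ctr-2, 5 without NSD2-1 or NSD2-3). Members whose groups did not overlap, 12 as reported, were 16 to 20 when 1 library was left out, 20 of them without NSD2-3; fewer values per group make separation more frequent for all genes. The log2 difference of TFE3 was -0.0068 to 0.18 when 1 library was left out, with the sign change without Ctr-2 and 0.05 without NSD2-1. That of GLB1, 0.09 as reported, was 0.0078 without NSD2-3, 0.05 without Ctr-1 and 0.13 without NSD2-1. That of TFEB, 0.51 as reported, was 0.88 without NSD2-1 and 0.21 without NSD2-2, and that of MCOLN1 was -0.12 without NSD2-2. The causes of the other shifts were not tested. Replicate numbers are siRNA numbers in NSD2-KD cells, and in Ctr-KD cells they number repeats with the control siRNA. As labels they therefore give no pairing of the libraries. Correlations of deviations for the same numbers were -0.02 and -0.03. These correlations cannot decide whether cultures were paired, because the Ctr-KD pair differed little beyond sampling noise. The replicate block, which gives NSD2-3 a level of its own, left 4 members at an unadjusted p below 0.05. Depths of 2473691 to 2845063 reads limit low members such as CTSK and TFEB, where a few reads move a value.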
